A study of Mus musculus with 3 samples.

Results

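Solute carriers are membrane proteins that move nutrients, ions, metals and metabolites across the cell surface and the membranes of organelles, and their genes carry the symbol Slc followed by a family number. Of the 333 genes in the deposited mouse table whose symbol begins with Slc and a digit, 143 were described here. They were chosen by their measured level, at least 2 FPKM in at least 1 library, after 11 symbols had been set aside (Slc2a1, Slc16a3, Slc3a2, Slc7a1, Slc7a2, Slc7a5, Slc7a11, Slc40a1, Slc11a1, Slc11a2 and Slc6a12). FPKM is the number of sequenced fragments scaled by transcript length and by library depth. The other 179 of the 322 eligible genes stayed below that floor. Among the 143, 130 reached 2 FPKM in every library, 5 in exactly 2 libraries and 8 in a single library, 7 of these in control and 1, Slc25a14, with harmine plus LPS. A member that reached the floor only where it was high had to differ between libraries, so counts and medians of members describe the genes chosen and support nothing further. Slc4a1ap, Slc7a6os and Slc9a3r1 match the symbol rule but encode no carrier. Slc9a3r1 encodes a scaffold protein that binds membrane transporters.

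The cells were RAW264.7, a mouse macrophage line from a virus-induced tumour, labelled as wild type with lung as its tissue. There were 3 poly(A) RNA-seq libraries, 1 per group: untreated cells in ordinary medium (control), cells given bacterial lipopolysaccharide (LPS) at 0.5 µg/ml for 6 h, and cells given harmine, a plant alkaloid that inhibits the kinase DYRK1A, at 10 µM from 0.5 h before the same LPS treatment. No group received harmine alone, so an action of harmine on the LPS response and an action independent of LPS cannot be told apart. Since each group was sequenced once, the spread between replicates is unknown and no p-value was computed. The deposited counts summed to 58169999, 52845589 and 56391972 in control, LPS and harmine plus LPS. Macrophage markers were present (8 of 8 at 1 FPKM or more), while the lung surfactant gene Sftpb was at or near 0 (0 to 0.013 FPKM). The 5 measured genes of the lung epithelium list summed to 4.17, 13 and 19.1 FPKM over control, LPS and harmine plus LPS, with 2 of them, the general epithelial genes Krt8 (2.61, 8.09 and 10.5 FPKM) and Epcam (0.995, 3.07 and 4.45 FPKM), higher with LPS at 2-fold. The part of such RNA in the members' values was not tested. In bulk RNA, fewer cells of a type and less RNA per cell cannot be told apart.

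In macrophages, LPS is known to redirect metabolism toward glycolysis and biosynthesis, to change the handling of zinc, copper and iron, and to act through receptors whose signalling depends on acidified endosomes and lysosomes. Carriers serve each of these processes. Plasma membrane carriers bring in sugars, amino acids, nucleosides and choline, the Slc25 family links mitochondrial and cytosolic metabolism, and the Slc35 family supplies the Golgi with nucleotide sugars for glycosylation.

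Values are given below in the order control, LPS and harmine plus LPS. A difference is log2(FPKM + 1) in the first library minus that in the second, and a member counts as higher or lower when it reached 2-fold on that scale, which understates the difference of low genes. A fold is a plain FPKM ratio, and the range in brackets is its 95% exact binomial counting interval, which covers counting error only. Shares of all genes at the same floor of 2 FPKM (10513 genes) stand beside the counts of members.

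When members were grouped by family number, mitochondrial carriers had the largest summed level. The 143 members together held 2313, 2262 and 2078 FPKM, which was 0.705%, 0.706% and 0.643% of the FPKM of all genes. Slc25a5, which exchanges ADP and ATP across the inner mitochondrial membrane, was the most abundant member by far at 499, 493 and 393 FPKM. It was followed by the mitochondrial phosphate carrier Slc25a3 (93.4, 88.1 and 87.7 FPKM), the neutral amino acid exchanger Slc1a5 (83.7, 95.6 and 86.9 FPKM), the second adenine nucleotide carrier Slc25a4 (76.9, 65.9 and 63.1 FPKM) and the lactate and pyruvate carrier Slc16a1 (61.0, 59.3 and 58.3 FPKM). None of these 5 differed by 1.5-fold between any pair of libraries. The 32 mitochondrial carriers summed to 1017, 917 and 825 FPKM, which was 44%, 40.6% and 39.7% of the members' total. Slc25a5 alone held 499, 493 and 393 FPKM of these sums. From LPS to harmine plus LPS the list's sum fell by no more than Slc25a5 did, so that step describes 1 gene. The summed level of the 15 zinc transporters was 188, 246 and 209 FPKM, and that of the 3 nucleoside transporters was 31.6, 12.5 and 15.4 FPKM.

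**Figure D1:**
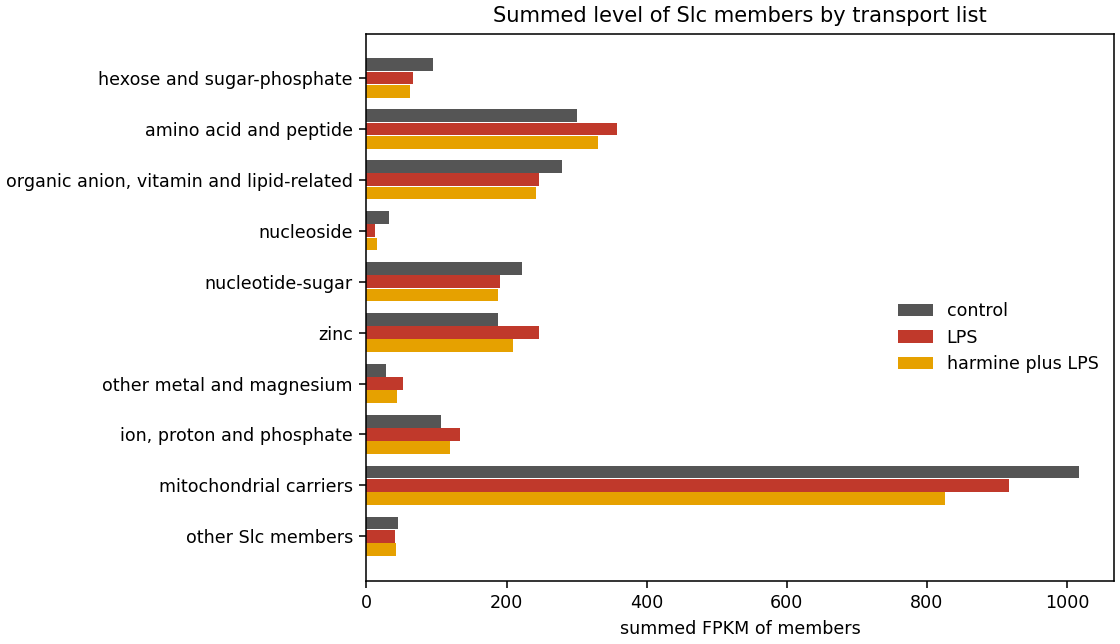
Summed FPKM (x axis, from 0) of the Slc members in each transport list (y axis), with 1 bar per library. Mitochondrial carriers reached 1017 FPKM in control, of which Slc25a5 alone held 499 FPKM, and the nucleoside list was highest in control at 31.6 FPKM.

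The first comparison asked how carrier transcripts differed after 6 h of LPS. In all, 6 members were higher with LPS and 16 lower, and 121 lay within 2-fold. The higher members were Slc15a3, Slc4a7, Slc31a2, Slc51b, Slc39a1 and Slc12a4. The lower members included choline, glucose-6-phosphate, nucleoside and several mitochondrial carriers. The share of members that were higher, 4.20%, stands beside 6.18% of all genes at the same floor, and the share that were lower, 11.2%, beside 8.02%. Among the symbols set aside, 9 reached the floor, of which 4 were higher with LPS (Slc7a11, Slc11a2, Slc2a1 and Slc11a1) and none lower. The members' shares leave these out. At 1.5-fold, 12 members were higher (8.39%, beside 11.5% of all genes) and 30 lower (21%, beside 20.1%). The median difference was -0.08 log2 for members and -0.14 for all genes. Of the 16 lower members, 10 reached the floor in every library and 6 only in control, so these 6 were members because of their control level. They were Slc2a8, Slc2a9, Slc9a5, Slc16a12, Slc29a3 and Slc43a2.

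**Figure D2:**
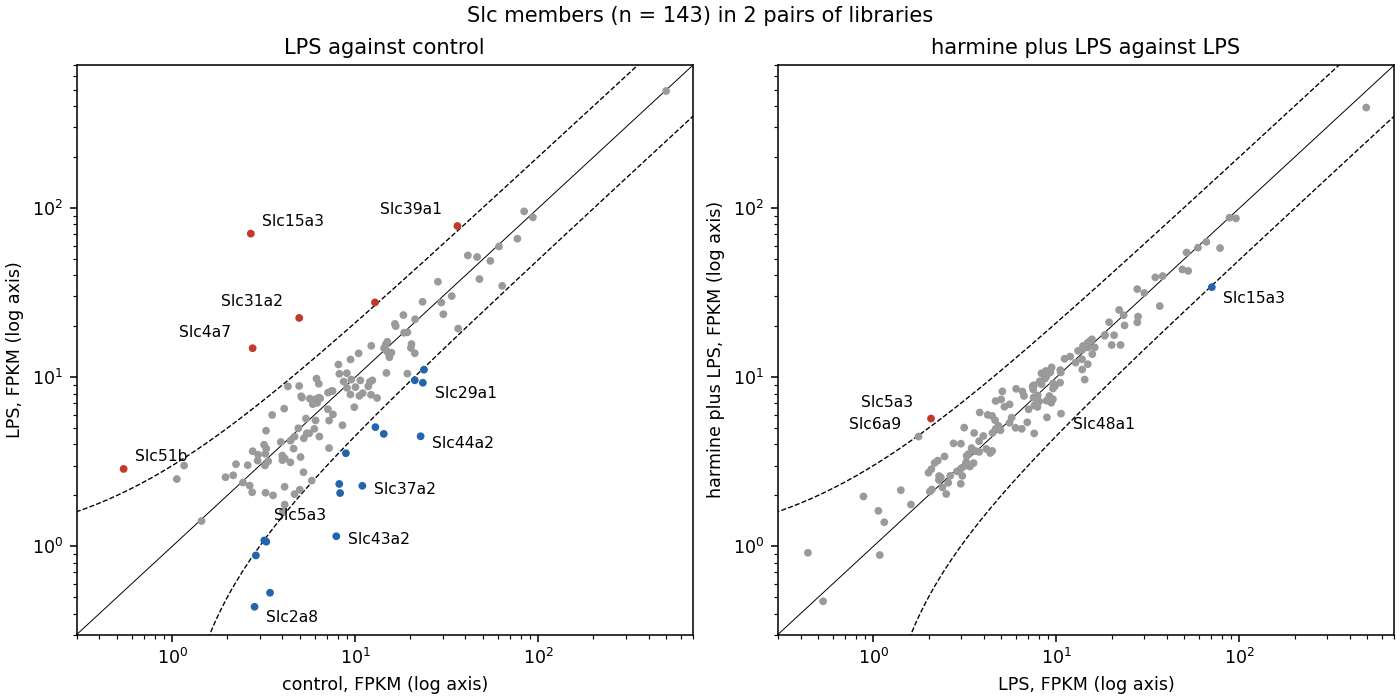
FPKM of the 143 Slc members on log axes, LPS against control (left) and harmine plus LPS against LPS (right), with 1 point per gene. The solid line marks equal levels, the dashed lines 2-fold on the log2(FPKM + 1) scale, red points are higher and blue points lower. Slc15a3 stands apart on the left at 2.69 and 70.6 FPKM, and on the right only Slc5a3 and Slc15a3 lie beyond a dashed line.

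Among peptide carriers, Slc15a3 (chromosome 19, 10839727 to 10859362 on mm10) had the largest difference of any member. It encodes a transporter of the lysosomal membrane that carries histidine and small peptides, including fragments of bacterial cell wall, into the cytosol. Control cells held 2.69 FPKM, LPS-treated cells 70.6 FPKM and cells given both agents 34.1 FPKM. The LPS value was 26.3-fold (23.2 to 30.1) above control, and the harmine plus LPS value was 2.07-fold (1.98 to 2.17) below LPS alone while still 3.25 log2 above control. The 3 libraries were therefore well separated beyond counting error. Tmem132a, on the opposite strand, overlaps 1541 bp of Slc15a3 and stood at 0.986, 14.0 and 9.34 FPKM. The sources used here do not say whether the authors counted by strand, so part of the reads in the overlap could belong to either gene. The related histidine and peptide carrier Slc15a4, which endosomal toll-like receptors need for signalling, showed nothing of this size at 9.41, 7.90 and 7.80 FPKM.

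A pair of ion carriers were higher with LPS. Slc4a7, a sodium bicarbonate cotransporter of the cell surface that raises intracellular pH, stood at 2.75, 14.8 and 11.9 FPKM. Its LPS level was 5.40-fold (4.97 to 5.87) above control, and that with harmine plus LPS was 1.24-fold (1.18 to 1.31) below LPS. Slc12a4, a potassium chloride cotransporter active in volume regulation, stood at 12.8, 27.7 and 21.1 FPKM, 2.16-fold (1.99 to 2.34) above control with LPS. The proton exchangers were uneven. Slc9a4 stood at 4.94, 8.87 and 5.78 FPKM, Slc9a5 at 2.86, 0.882 and 1.97 FPKM, and Slc9a8, which regulates the pH of the Golgi, at 4.43, 4.21 and 5.98 FPKM. Only Slc9a5 passed 2-fold among them, and it was lower with LPS. It reached the floor only in control and so had to differ. Slc20a1, a phosphate importer, was close in all libraries at 16.6, 20 and 15.5 FPKM. Of the 16 members of this list, 2 were higher with LPS, beside 6.18% of all genes, and 1 lower, beside 8.02%. The median was 0.00 log2.

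Metal carriers included further higher members and none lower. Slc31a2, a copper transporter relative of endosomes and lysosomes, stood at 4.94, 22.4 and 15.5 FPKM, 4.54-fold (3.83 to 5.42) above control with LPS. Slc31a1, the high-affinity copper importer of the cell surface, stood at 16.5, 20.7 and 17.7 FPKM, with an LPS ratio of 1.25 (1.16 to 1.36). The magnesium carrier Slc41a1 stood at 4.09, 6.52 and 8.22 FPKM and was the only metal carrier of the 4 members whose level with harmine plus LPS was above that with LPS. The 4 members had a median of 0.45 log2 with LPS, with 1 higher, beside 6.18% of all genes. Zinc transporters, 15 in number, had a median of 0.19 log2 with 1 higher and none lower, beside 6.18% and 8.02% of all genes. Slc39a1, a zinc importer of the cell surface, was that member at 36.1, 78.3 and 58.0 FPKM, 2.17-fold (2.03 to 2.31) above control with LPS. The pseudogene Slc39a1-ps, just under the floor, stood at 0.853, 1.98 and 1.54 FPKM, and reads of near-identical sequence could be split between it and Slc39a1.

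The other zinc genes differed by less. Slc30a4 and Slc30a7, which load zinc into vesicles and the secretory pathway, stood at 3.52, 5.98 and 5.02 FPKM and at 6.32, 9.13 and 7.74 FPKM. Slc39a7, which releases zinc from the endoplasmic reticulum, stood at 41.2, 52.5 and 42.5 FPKM, and the annotated gene Gm20427 overlaps it on the same strand. Slc39a14, a zinc and iron importer known as an acute-phase gene of liver, stood at 5.86, 6.93 and 5.41 FPKM. Slc30a1, the zinc exporter of the cell surface, stood at 3.23, 2.07 and 2.86 FPKM, the lowest LPS difference of the list at -0.46 log2. For comparison, the zinc-binding metallothioneins Mt1 and Mt2 stood at 135, 111 and 79.4 FPKM and at 104, 127 and 57.1 FPKM, and their regulator Mtf1 at 2.64, 5.83 and 5.57 FPKM.

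**Figure D3:**
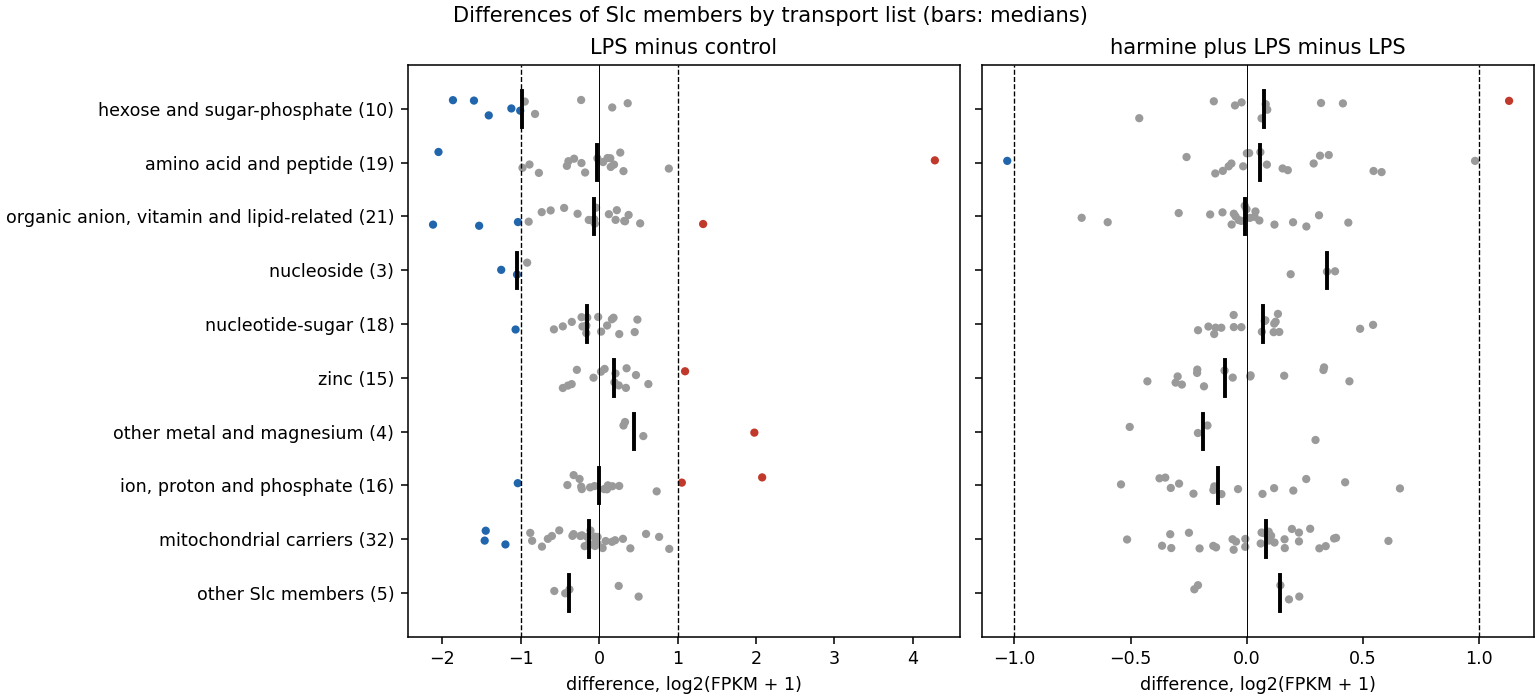
Difference in log2(FPKM + 1) (x axis) of each Slc member, grouped by transport list (y axis, number of members in brackets), for LPS minus control (left) and harmine plus LPS minus LPS (right). Thick bars are medians and dashed lines mark 2-fold. On the left the hexose and nucleoside medians lie at -0.98 and -1.05, and on the right nearly all points lie between the dashed lines. Both of these medians rest on members that reached the floor only in control.

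Slc51b encodes the beta subunit of a bile acid and steroid transporter of the ileum and stood at 0.542, 2.87 and 2.77 FPKM. Its LPS level was 5.28-fold (2.37 to 16.9) above control, a wide interval because control held 26 deposited counts. Markers of intestinal epithelium moved with it. Of 12 such genes, LPS-treated cells held 7 at 2-fold or more above control and none below, none was at 0 in all libraries, and their summed level was 56.8, 195 and 195 FPKM. Examples were Fabp1 at 10.6, 35 and 33.9 FPKM and Vil1 at 0.975, 3.87 and 4.63 FPKM. The intestinal glucose carrier Slc5a1, just under the floor, stood at 0.521, 1.74 and 1.96 FPKM. Keratinocyte and fibroblast markers were also higher, with sums of 0.675, 9.95 and 11.1 FPKM and of 1.28, 9.41 and 9.35 FPKM. The part of such RNA in the value of Slc51b was not tested.

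Of 10 sugar and sugar-phosphate carriers, 5 were lower with LPS, beside 8.02% of all genes, and none higher, with a median of -0.98 log2. Slc2a8 and Slc2a9 among the 5, and Slc45a4 (4.02, 1.60 and 1.77 FPKM), reached the floor only in control and so had to differ. The median lies midway between Slc2a9 (-1.01 log2) and Slc45a4 (-0.95 log2), so it rests on members chosen by their control level. Slc37a2, a phosphate-linked glucose-6-phosphate exchanger of the endoplasmic reticulum abundant in macrophages, had 10.9, 2.28 and 2.47 FPKM, and control exceeded LPS 4.80-fold (4.16 to 5.55). The antisense gene Gm10177 overlaps 444 bp of it and stood at 12, 13.3 and 11.5 FPKM. Slc37a4, which feeds glucose-6-phosphate to glucose-6-phosphatase, stood at 8.88, 3.55 and 4.68 FPKM. The intracellular hexose carrier Slc2a8 stood at 2.82, 0.439 and 0.915 FPKM, from 86 deposited counts with LPS, and the urate carrier Slc2a9 at 3.18, 1.08 and 0.887 FPKM. The fifth lower member, Slc5a3, is described with harmine. Slc50a1 stood at 19.2, 10.5 and 11 FPKM. At 1.5-fold, 7 of the 10 were lower, beside 20.1% of all genes. The lysosomal hexose carrier Slc2a6 was not among them at 28.3, 36.7 and 26.3 FPKM. Slc2a1, the main glucose importer and among the symbols set aside, went the other way at 30.6, 77.8 and 57.6 FPKM.

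Of the 3 nucleoside carriers, 2 were lower with LPS, beside 8.02% of all genes, and none higher, beside 6.18%. The median of -1.05 log2 is the value of Slc29a3, which reached the floor only in control. Slc29a1, the equilibrative nucleoside transporter of the cell surface, had 23.4, 9.27 and 10.7 FPKM, with control 2.52-fold (2.29 to 2.78) above LPS. Slc29a3, its lysosomal relative, stood at 3.26, 1.06 and 1.62 FPKM, and Slc29a2, at 4.97, 2.16 and 3.11 FPKM, missed 2-fold at -0.92 log2. In each of the 3 the harmine plus LPS level lay between those of LPS and control.

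The organic ion, vitamin and lipid list had 3 lower members, 2 of them choline transporter-like genes. Slc44a2 (chromosome 9, 21320698 to 21355028) had 22.7, 4.47 and 4.68 FPKM, so that control exceeded LPS 5.09-fold (4.66 to 5.57), the lowest log2 difference of any member at -2.12. Slc44a1, which supplies choline for phospholipid synthesis, stood at 23.7, 11.1 and 12.9 FPKM, 2.14-fold (2.00 to 2.30) lower. Slc16a12, a creatine carrier, stood at 3.42, 0.531 and 0.472 FPKM and reached the floor only in control. The fatty acid transport protein Slc27a1 of the same list was level at 29.5, 27.6 and 33.2 FPKM, while its relative Slc27a4 stood at 5.06, 7.71 and 7.65 FPKM, 0.52 log2 above control with LPS. The list held 21 members, of which 1 was higher with LPS and 3 lower, beside 6.18% and 8.02% of all genes. Its median was -0.06 log2.

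Of 19 amino acid and peptide carriers, 1 was higher with LPS (Slc15a3), beside 6.18% of all genes, and 1 lower (Slc43a2), beside 8.02%. The median was -0.02 log2. At 1.5-fold 2 were higher and 4 lower, beside 11.5% and 20.1% of all genes. Slc43a2 encodes a carrier of large neutral amino acids and had 7.87, 1.15 and 1.39 FPKM, with control 6.87-fold (5.87 to 8.1) above LPS. It reached the floor only in control and so was a member because of its control level. Gm45606, on the opposite strand, overlaps 1378 bp of it and stood at 3.58, 0.422 and 0.408 FPKM. Slc36a1, a proton-coupled carrier of lysosomes, stood at 5.78, 2.44 and 3.40 FPKM and just missed 2-fold at -0.98 log2. Slc7a7, an exchanger of cationic and neutral amino acids, stood at 1.16, 3.00 and 2.34 FPKM, 0.89 log2 above control with LPS. The abundant glutamine and neutral amino acid importers Slc38a2 (46.3, 51.4 and 54.6 FPKM) and Slc1a5 were within 1.5-fold in every pair of libraries, as was Slc6a6, the taurine carrier, at 47.7, 38 and 39.6 FPKM. The glycine carrier Slc6a9, at 4.11, 1.76 and 4.46 FPKM, was -0.89 log2 from control with LPS. Slc43a3, counted here by its family number although it carries purine nucleobases, stood at 7.19, 3.81 and 6.18 FPKM, -0.77 log2 from control with LPS.

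Mitochondrial carriers had 3 of 32 members lower at 2-fold with LPS, beside 8.02% of all genes. None was higher, beside 6.18%, and the median was -0.13 log2. Slc25a23, a calcium-regulated carrier of ATP and phosphate, had 8.17, 2.34 and 2.55 FPKM, with control 3.50-fold (2.98 to 4.14) above LPS. Slc25a25, a carrier of the same kind, went the other way at 4.28, 8.82 and 7.26 FPKM, 0.89 log2 above control. Slc25a45 stood at 14.3, 4.62 and 5.56 FPKM, and the dicarboxylate carrier Slc25a10 at 12.9, 5.06 and 8.24 FPKM. The citrate carrier Slc25a1, which exports the precursor of fatty acids and sterols, stood at 36.5, 19.4 and 21.1 FPKM, 1.88-fold (1.71 to 2.07) lower. Slc25a39, which brings glutathione into mitochondria, stood at 63.5, 34.7 and 38.9 FPKM. The iron importer Slc25a37 and the glycine carrier Slc25a38, which both serve heme synthesis, stood at 12.4, 9.57 and 8.57 FPKM and at 12, 9.37 and 7.05 FPKM, lowest with harmine plus LPS in both. Slc25a33, a pyrimidine nucleotide carrier, stood at 6.14, 9.81 and 8.86 FPKM and was 0.60 log2 above control with LPS.

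Nucleotide-sugar carriers were mostly level. Of 18 members, 1 was lower with LPS, beside 8.02% of all genes, and none higher, beside 6.18%. The median was -0.16 log2. Slc35c2 was the lower member at 21.1, 9.58 and 9.18 FPKM, beside the GDP-fucose carrier Slc35c1 at 21.1, 13.8 and 14.5 FPKM. The most abundant were Slc35a4 (54.7, 48.7 and 43.3 FPKM) and Slc35b1 (30.3, 23.6 and 20.2 FPKM), which exchanges ATP and ADP across the endoplasmic reticulum membrane. The highest differences were those of the CMP-sialic acid carrier Slc35a1 (5.11, 7.57 and 6.81 FPKM) and the UDP-galactose carrier Slc35a2 (3.25, 4.83 and 5.15 FPKM), both under 1.5-fold on the log2(FPKM + 1) scale. Outside the named lists, the 5 remaining members held none at 2-fold, with Slc6a13, a GABA and taurine carrier, at 12.2, 7.87 and 6.67 FPKM and the vitamin carrier Slc5a6 at 6.36, 4.46 and 3.66 FPKM.

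Sequence upstream of the gene start is shown for the 3 members with the lowest LPS difference, for Slc39a1 as a higher member, and for Slc5a3. Each is 250 bases ending just before the start in RefSeq, on build GRCm38.p6, written 5′ to 3′ along the gene's strand, with motif matches in capitals.
Slc44a2 (chr9:21320469-21320718, plus strand): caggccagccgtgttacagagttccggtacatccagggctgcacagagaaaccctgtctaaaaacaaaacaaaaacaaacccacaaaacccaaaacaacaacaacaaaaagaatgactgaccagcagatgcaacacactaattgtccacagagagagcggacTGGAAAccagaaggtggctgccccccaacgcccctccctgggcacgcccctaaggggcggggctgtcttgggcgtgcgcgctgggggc
Slc43a2 (chr11:75531444-75531693, plus strand): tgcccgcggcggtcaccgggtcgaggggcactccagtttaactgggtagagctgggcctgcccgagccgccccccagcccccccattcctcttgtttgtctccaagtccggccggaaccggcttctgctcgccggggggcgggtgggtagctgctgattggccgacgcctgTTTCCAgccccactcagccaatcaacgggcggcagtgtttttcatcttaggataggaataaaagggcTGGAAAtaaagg
Slc37a2 (chr9:37255739-37255988, minus strand): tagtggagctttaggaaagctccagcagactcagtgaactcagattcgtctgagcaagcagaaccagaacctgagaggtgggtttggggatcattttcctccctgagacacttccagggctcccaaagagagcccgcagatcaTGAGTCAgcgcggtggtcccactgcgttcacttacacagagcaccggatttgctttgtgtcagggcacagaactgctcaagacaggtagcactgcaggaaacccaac
Slc39a1 (chr3:90247942-90248191, plus strand): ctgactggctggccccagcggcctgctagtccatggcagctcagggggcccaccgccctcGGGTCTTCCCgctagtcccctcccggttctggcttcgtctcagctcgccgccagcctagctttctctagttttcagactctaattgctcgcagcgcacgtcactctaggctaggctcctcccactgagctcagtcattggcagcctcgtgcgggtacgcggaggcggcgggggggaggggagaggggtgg
Slc5a3 (chr16:92058072-92058321, plus strand): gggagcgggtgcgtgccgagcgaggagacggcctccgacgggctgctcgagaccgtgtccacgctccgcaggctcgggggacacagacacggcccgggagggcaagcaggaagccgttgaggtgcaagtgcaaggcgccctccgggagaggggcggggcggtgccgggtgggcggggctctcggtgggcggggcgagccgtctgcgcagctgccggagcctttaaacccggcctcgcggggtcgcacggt
The letters searched, on both strands, were TGGAAA (the core of sites for NFAT factors), TGANTCA (AP-1) and CACGTG (E-box). The NF-kB-like motif was GGG, NN, TT, N and CC in a row, and the interferon-response motif was GAAA, NN and GAAA. A match of either of these last can overlap one of TGGAAA. Slc44a2 held 1 match and Slc43a2 held 2 matches of TGGAAA, Slc37a2 held 1 of TGANTCA, Slc39a1 held 1 of the NF-kB-like motif and Slc5a3 none. Among the other higher members, Slc12a4 held no match, Slc51b 1 of the AP-1 motif, and Slc15a3 had no window. The windows nearest Slc4a7 and Slc31a2 lay 16505 and 23867 bases from the table's gene start. Slc37a4, a lower member, also held 1 match of the NF-kB-like motif. RefSeq windows were found for 106 members, 95 of them within 500 bases of the table's gene start. Of these 95, 14 (14.7%) held CACGTG, 10 (10.5%) TGGAAA, 6 (6.32%) TGANTCA, 3 (3.16%) the NF-kB-like motif and 1 (1.05%) the interferon-response motif. The shares among 6505 windows of all genes at the same floor were 9.27%, 14.3%, 3.84%, 4.80% and 2.69%. Over all 32851 windows they were 6.02%, 18.6%, 6.75%, 4.11% and 2.98%. A match describes letters only.

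**Figure D4:**
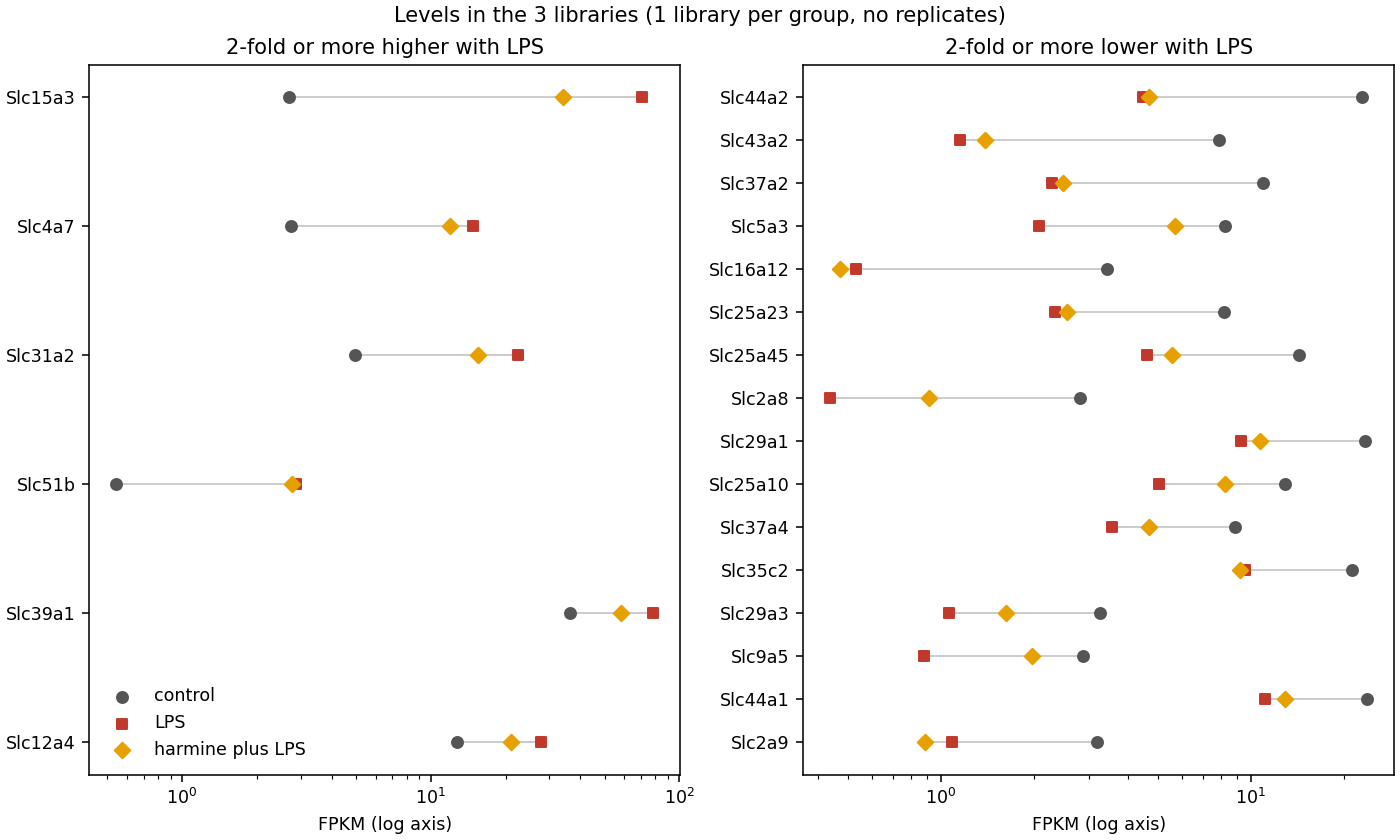
FPKM (x axis, log) of the 6 members higher and the 16 lower with LPS (y axis) in control (circles), LPS (squares) and harmine plus LPS (diamonds). Slc15a3 ran from 2.69 to 70.6 FPKM, and Slc5a3 shows the widest gap between squares and diamonds among the lower members.

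The second comparison asked how harmine given before LPS altered these levels. Carrier transcripts with harmine plus LPS were close to those with LPS alone: 141 of 143 members lay within 2-fold and 136 within 1.5-fold. One member was higher, Slc5a3 (0.699% of members, beside 0.647% of all genes), and 1 was lower, Slc15a3 (0.699%, beside 1.01%). At 1.5-fold 4 members were higher (2.80%, beside 5.30%) and 3 lower (2.1%, beside 3.42%). The members' median was 0.01 log2 and that of all genes 0.10. After median-of-ratios rescaling these medians were -0.10 and -0.02, so small differences near 0 carry no direction.

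Slc5a3 (chromosome 16, 92058322 to 92087473), the sodium-coupled importer of myo-inositol, an osmolyte and precursor of phosphoinositides, stood at 8.26, 2.06 and 5.69 FPKM. With LPS it was 4.0-fold (3.55 to 4.51) below control, and with harmine plus LPS 2.76-fold (2.43 to 3.13) above LPS, though still -0.47 log2 from control. Mrps6, which encodes a mitochondrial ribosomal protein, overlaps it on the same strand over 29152 bp. RefSeq places the starts of Slc5a3 and Mrps6 at 92058322 and 92058336, both just past the end of the Slc5a3 sequence printed above. Mrps6 stood at 42.4, 19.5 and 34.1 FPKM, in the same order of libraries, and reads of shared exons could be assigned to either gene. The betaine importer Slc6a12, also an osmolyte carrier but among the symbols set aside, stood at 70.1, 37.3 and 92.5 FPKM. The taurine carrier Slc6a6, another osmolyte carrier, had an LPS level 0.797 of control. Its harmine plus LPS level was 1.04 of LPS, too close to carry a direction. Slc6a13, a GABA and taurine carrier, was lowest with harmine plus LPS, at 12.2, 7.87 and 6.67 FPKM.

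Slc6a9 was 2.53-fold (2.07 to 3.09) above LPS with harmine plus LPS and at the control level (0.09 log2 from control). On the log2(FPKM + 1) scale its harmine difference was 0.98, just short of 2-fold. Slc9a5 stood at 2.86, 0.882 and 1.97 FPKM, 2.23-fold (1.67 to 2.98) above LPS, and Slc25a10 was 1.63-fold (1.40 to 1.9) above LPS. Just under 1.5-fold on that scale came Slc43a3 (0.58 log2), the neutral amino acid exchanger Slc1a4 (4.42, 3.13 and 5.03 FPKM, 0.54 log2) and the UDP-sugar carrier Slc35b4 (5.60, 4.65 and 7.23 FPKM, 0.54 log2).

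In the lower direction, Slc15a3 was followed by Slc48a1, which moves heme from phagolysosomes to the cytosol, at 14.8, 10.6 and 6.08 FPKM. It was 1.74-fold (1.49 to 2.03) below LPS and, at -1.16 log2, more than 2-fold below control only in the harmine plus LPS library. The monocarboxylate carrier Slc16a13 stood at 6.32, 7.55 and 4.65 FPKM, 1.62-fold (1.35 to 1.95) below LPS. Slc9a4 (-0.54 log2), the aspartate and glutamate carrier Slc25a12 (14.9, 14.3 and 9.68 FPKM, -0.52 log2) and Slc31a2 (-0.50 log2) came next. Slc25a5, the most abundant member, was 1.25-fold (1.22 to 1.29) below LPS, a small difference beyond counting error.

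**Figure D5:**
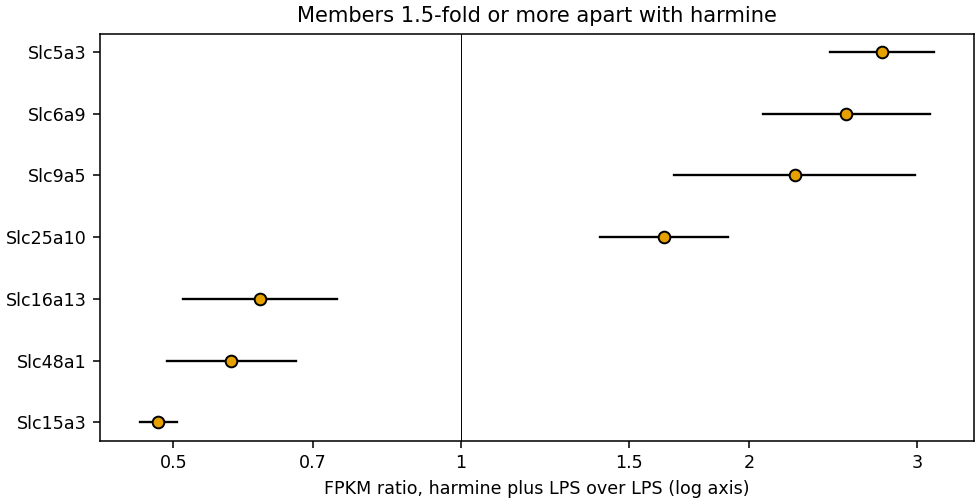
FPKM ratio of harmine plus LPS over LPS (x axis, log) for the 7 members that reached 1.5-fold on the log2(FPKM + 1) scale (y axis), with 95% exact binomial counting intervals as lines. Slc5a3 lies at 2.76 and Slc15a3 at 0.482, and no interval crosses 1.

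In all, 4 members stood 2-fold from control with LPS and at least 1.5-fold the other way with harmine: Slc15a3 from above, and Slc5a3, Slc25a10 and Slc9a5 from below. Among the higher members this was 1 of 6 (16.7%), beside 28.9% of all genes higher with LPS, and among the lower ones 3 of 16 (18.8%), beside 22.2%. Of those 16 lower members, 6 were members because of their control level, Slc9a5 among them. The harmine plus LPS level lay between control and LPS for 6 of the 6 higher members and 13 of the 16 lower ones, beside 72.2% and 82.9% of all such genes. The LPS library enters both of the differences compared, and an error in it moves them in opposite directions. Slc44a2, Slc37a2, Slc43a2 and Slc16a12 stayed near their LPS level, with harmine differences of 0.05, 0.08, 0.15 and -0.06 log2.

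Against untreated cells, harmine plus LPS left 4 members higher (2.80%, beside 5.52% of all genes) and 10 lower (6.99%, beside 5.41%). Slc15a3 (3.25 log2), Slc4a7 (1.79), Slc31a2 (1.47) and Slc51b (1.29) were the higher ones. The lower ones were Slc44a2 (-2.06), Slc43a2 (-1.89), Slc37a2 (-1.78), Slc16a12 (-1.59), Slc25a23 (-1.37), Slc25a45 (-1.22), Slc48a1 (-1.16), Slc2a9 (-1.15), Slc35c2 (-1.12) and Slc29a1 (-1.06). Of these lower ones, Slc43a2, Slc16a12 and Slc2a9 reached the floor only in control. This comparison shares its libraries with the others, so it is no independent measurement.

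Genes with the symbols Slco, Abc or Mfsd and a set of related genes, among them Mt1, Mt2 and Mtf1, gave 39 genes at the floor. They were chosen by symbol, and not all encode transporters. With LPS none was higher, beside 6.18% of all genes, and 5 were lower, beside 8.02%, among them the sterol exporter Abcg1 (10.3, 1.76 and 6.14 FPKM) and the anion carrier Slco4a1 (101, 37.1 and 87.7 FPKM). Between harmine plus LPS and LPS, Abcg1 and Slco4a1 were the 2 that were higher, beside 0.647% of all genes, and the metallothionein Mt2 (-1.14 log2) was the 1 that was lower, beside 1.01%. Bsg, the chaperone of Slc16a1 at the cell surface, was level at 132, 135 and 142 FPKM, like its partner.

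At the floor itself, the members just inside were Slc25a14 (highest value 2.15 FPKM), Slc66a2 (2.43), Slc25a47 (2.50), Slc7a8 (2.56) and Slc25a20 (2.63). Just outside were Slc39a1-ps (1.98), Slc2a4rg-ps (1.97), Slc5a1 (1.96), Slc27a3 (1.94) and Slc37a1 (1.82). The nucleoside carrier Slc28a2 and the lysosomal carrier Slc46a3 stayed further under it, at 0.0787, 0.413 and 0.262 FPKM and at 0.979, 0.522 and 0.384 FPKM.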

How the data were processed

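The assay was poly(A) RNA-seq of 3 RAW264.7 libraries. The authors deposited FPKM values per gene and library, per the file headers. They also deposited counts per gene, without normalization per the file headers. Build mm10, edgeR, DESeq2, StringTie 2.1.6, HISAT2 2.2.1 and cutadapt 1.9 appear in the submitters' processing notes. What each tool did, any gene filter and any use of strand are not given in the sources used here. In control, counts of 1, 2, 3 and 4 were held by 850, 770, 566 and 1072 genes. Because of the peak at 4, the counting intervals treat 4 counts as 1 read pair. Lower counts also occur, so this is an assumption that the counts do not settle.

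Differences were computed as log2(FPKM + 1) with Python 3.11.15, numpy 2.4.6, pandas 2.3.3 and scipy 1.17.1, and the calls and intervals were tested on simulated data. With 1 library per group, no model was fitted to the counts. The 10 transport lists follow Slc family numbers, with the 3 genes that are no carriers put under other members. Members named are the 10 highest and 10 lowest per comparison among those with 5 FPKM in 1 of the libraries compared, up to 4 by LPS difference, 2 by harmine difference and 2 by level per list, the 5 members nearest the floor, every member meeting the reversal rule and 12 fixed names. Slc2a9, Slc45a4, Slc25a4, Slc25a39 and Slc6a6 were added after their values were seen, and some members that the rule names are not described above. Members, lists, motifs and rules were chosen with earlier results of these data known. Promoter sequence is from RefSeq, build GRCm38.p6. Figures were drawn with matplotlib 3.10.9.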

Additional observations from a re-analysis of the deposited data

How the results depend on the processing

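Named members held 36 differences of 2-fold or more. All 36 stayed at 2-fold with a pseudocount of 0.1 FPKM, after TPM rescaling and with CPM computed from the counts in place of FPKM. After median-of-ratios and upper-quartile rescaling 35 and 34 stayed, and with a pseudocount of 5 FPKM only 14. Their direction was kept throughout, but a pseudocount cannot change a direction, so this tests nothing there. The number of members lower with LPS (16) was 4 with a pseudocount of 5 FPKM, and lower against control with harmine plus LPS 3 in place of 10. By construction that pseudocount compresses low genes. Between harmine plus LPS and LPS, 1 member was higher; this was 3 with a pseudocount of 0.1 FPKM and with CPM, 2 after TPM rescaling and 0 with a pseudocount of 5 FPKM, which also left 0 lower. The 4 members that went the other way with harmine were 1 with a pseudocount of 5 FPKM and 2 after upper-quartile rescaling. With that pseudocount Slc5a3, Slc25a10 and Slc9a5 stood at -0.91, -0.83 and -0.42 log2 with LPS, short of 2-fold. Upper-quartile rescaling put Slc9a5 at -0.999 log2 with LPS, also short of 2-fold. Slc25a10, at 0.61 log2 between harmine plus LPS and LPS as reported, fell short of 1.5-fold there after that rescaling. A 1.5-fold threshold gave 12 higher and 30 lower with LPS, 4 and 3 with harmine against LPS, and 10 and 25 with harmine plus LPS against control. Higher members made up 27.3% of the calls with LPS and 50% with a pseudocount of 5 FPKM. With a floor of 5 FPKM, 107 members gave 5 higher and 11 lower with LPS, and with no floor 322 genes gave 6 and 16. Leaving out the 3 genes that are no carriers, a choice made after seeing the data, changed no count. Median-of-ratios rescaling moved the median of all genes between harmine plus LPS and LPS from 0.10 to -0.02 log2. No paired analysis was possible because each group holds 1 library. Slc51b and Slc2a8 rest on few counts, 26 in control and 86 with LPS.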
